A study of Mus musculus with 2 samples.

Results

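The receptors for glutamate, GABA and glycine, the main fast transmitters of the brain, were examined in 2 RNA-seq libraries of embryonic mouse cortex. Members were taken by symbol from the deposited gene table, as every row of an ionotropic or metabotropic glutamate receptor, a GABA-A or GABA-B receptor, or a glycine receptor, and 43 of 16103 genes matched. Of these, 38 had a mean RPKM of 0.5 or more over both libraries (RPKM is reads scaled for gene length and library size), as did 15187 of all genes. The symbol pattern also takes in Grid2ip, which is no receptor but a scaffold protein. It is counted among the members but described apart below. The subunit genes Grin2a, Grm6, Gabra6, Gabrp, Gabrr1, Gabrr2, Gabrr3, Glra1, Glra3 and Glra4 have no row in the table and were not analysed here.

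The samples were 1 Control library and 1 TRPM2-KD library. Both came from embryos of the outbred ICR mouse stock in the warm condition of the study, whose temperature is not given in the sources used here. Cortices received a control plasmid or a plasmid against Trpm2, named TRPM2-sh1 in the table, by electroporation at embryonic day 13, and GFP-positive cells were sorted at embryonic day 15. TRPM2 is a calcium-permeable channel opened by warmth and oxidative stress, and the study asks about its part in brain development under hyperthermia. Whether each library pools several embryos is not stated, and off-target effects of the single construct cannot be separated from those of lower Trpm2. The libraries held 26209192 and 20791236 counted reads. Trpm2 had 241 reads (0.745 RPKM) in Control and 155 (0.604 RPKM) in TRPM2-KD. Its ratio was 0.811 with an interval from 0.658 to 0.996, so the lowering was slight and the upper end lay close to 1. With 1 library per group no difference has a replicate check, and each interval given is the exact (Clopper-Pearson) 95% interval of the read counts, which covers counting error only.

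Glutamate opens the AMPA, kainate and NMDA receptor channels, each built of 4 subunits, and also acts on the G protein-coupled metabotropic receptors. GABA and glycine open chloride channels of 5 subunits, and GABA also acts on the GABA-B receptor, a pair of GABBR1 and GABBR2. In the embryonic cortex GABA and glycine excite young cells, because these cells hold much chloride. Progenitors and migrating neurons already carry several of these receptors before synapses form.

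The cells carry labels of neural progenitors, and their markers were present beside those of neurons. Sox2, a progenitor transcription factor, was at 64.4 RPKM in Control and 65.3 in TRPM2-KD, and Pax6, which specifies cortical radial glia, was at 5.57 in both. The neuronal tubulin gene Tubb3 was at 743 and 680 RPKM, and Gad1 and Gad2, the GABA-synthesizing enzymes of interneurons, were between 18.1 and 21.7 RPKM. The levels below are therefore those of a mixture. In such bulk libraries, fewer cells of a type and less RNA per cell cannot be told apart.

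Promoter sequences are shown for 2 sets of members whose ratios are described further on. In all 4 the window runs from 250 bases before the start of transcription to 50 after it, taken from RefSeq on build GRCm38.p6, while the counts were made on mm9. The neighbours Gabra5 (chr7:57510010-57510309, minus strand) and Gabrg3 (chr7:57387166-57387465, minus strand) were both lower in TRPM2-KD, and capitals mark their CpG dinucleotides, 13 in each.

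Gabra5: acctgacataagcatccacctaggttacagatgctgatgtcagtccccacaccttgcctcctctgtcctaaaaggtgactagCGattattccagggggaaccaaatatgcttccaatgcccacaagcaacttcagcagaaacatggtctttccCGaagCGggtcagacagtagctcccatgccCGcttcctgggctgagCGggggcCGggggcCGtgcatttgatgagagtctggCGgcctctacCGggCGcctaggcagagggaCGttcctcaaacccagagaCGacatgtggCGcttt

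Gabrg3: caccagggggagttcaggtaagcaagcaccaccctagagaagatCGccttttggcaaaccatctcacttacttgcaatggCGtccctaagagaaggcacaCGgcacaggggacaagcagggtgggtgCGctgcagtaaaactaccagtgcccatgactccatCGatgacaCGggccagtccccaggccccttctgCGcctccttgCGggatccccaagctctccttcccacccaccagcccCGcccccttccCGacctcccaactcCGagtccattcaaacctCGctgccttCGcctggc

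Grm3 (chr5:9725303-9725602, minus strand), the receptor gene with the highest ratio, and Grin1 (chr2:25319138-25319437, minus strand) are shown because their windows hold the letters GCGGGGGCG, a form of the binding motif of EGR factors, which are products of immediate early genes. Capitals mark the match, which in both overlaps the letters GGGCGG of an SP factor motif.

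Grm3: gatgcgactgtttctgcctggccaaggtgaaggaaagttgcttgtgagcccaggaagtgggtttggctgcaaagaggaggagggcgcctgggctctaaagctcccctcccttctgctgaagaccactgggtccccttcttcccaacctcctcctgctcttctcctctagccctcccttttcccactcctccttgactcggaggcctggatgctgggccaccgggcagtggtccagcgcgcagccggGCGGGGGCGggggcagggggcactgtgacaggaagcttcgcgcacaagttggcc

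Grin1: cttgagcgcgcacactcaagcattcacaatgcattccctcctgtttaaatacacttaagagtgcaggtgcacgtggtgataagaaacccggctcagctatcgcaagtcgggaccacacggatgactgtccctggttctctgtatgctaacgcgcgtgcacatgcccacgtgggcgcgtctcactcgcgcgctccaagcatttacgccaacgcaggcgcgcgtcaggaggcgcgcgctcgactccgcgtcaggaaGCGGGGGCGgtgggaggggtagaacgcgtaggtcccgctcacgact

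As a group the members, Grid2ip included, sat at nearly the same level in both libraries. The RPKM of all 43 summed to 400.3 in Control and to 401.7 in TRPM2-KD. The median log2 ratio (TRPM2-KD over Control) of the 38 genes at the minimum was -0.01, beside -0.004 for all 15187 genes. Of the 38, 17 lay above 0 and 21 below, and of the 37 without Grid2ip 17 and 20. No member reached a ratio of 1.5, while 7.85% of all genes did. The 3 members at or below 1/1.5 were Grin3b, Gabra5 and Grid2ip, where the share over all genes was 6.6%. On log2(RPKM + 1), which damps low levels, none of the 3 passed. The counting interval lay wholly above 1 for 6 members (15.8%), against 28.1% of all genes, and wholly below 1 for 7 (18.4%), against 28.2%. Without Grid2ip 6 intervals lay below 1.

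The abundant receptors differed least. Of 13 members with a mean RPKM of 5 or more, 12 had a ratio between 0.8 and 1/0.8 (92.3%), beside 84.3% of all genes at that level, and the exception was Grik2. Among the 25 members from 0.5 to 5 RPKM, 17 were in that range (68.0%), beside 46.4% of genes at that level. The members are long, with a median gene length of 5.88 kb against 3.47 kb for all genes, so they collect more reads at a given RPKM, and the part of that in these shares was not tested. The series calls a gene where p is below 0.05 and the log2 fold change exceeds 1 in either direction. By the values of the authors' deposited table this calls none of the 43 members, beside 3.84% of all listed genes.

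**Figure D1:**
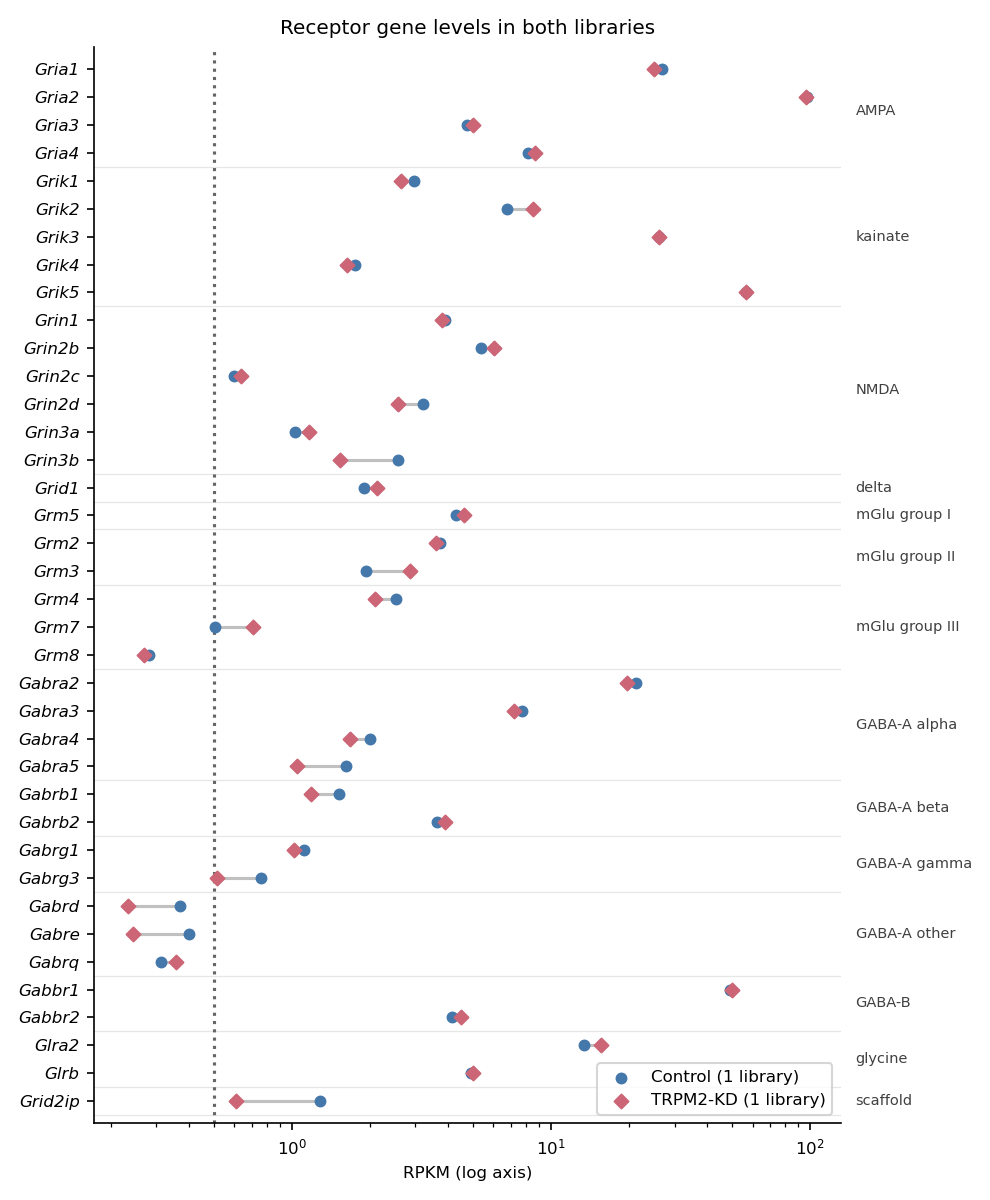
RPKM of the 38 members reported by name (log axis) in Control (circles) and TRPM2-KD (diamonds), 1 library each, by family. Of these 34 have a mean RPKM at the minimum of 0.5 or more, which the dotted line marks. Gria2, Grik5 and Gabbr1 stand highest, with the points of both libraries nearly on top of each other, and the widest gaps belong to genes under 3 RPKM.

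The AMPA receptor genes, which encode the fast excitatory channels, were the most abundant family and were held by 1 subunit. Gria2, whose subunit makes the channel nearly impermeable to calcium once its RNA is edited, had 17711 Control and 13933 TRPM2-KD reads, or 97.0 and 96.2 RPKM. It ranked 389 of the 16103 genes by mean RPKM and gave 71.0% and 71.3% of the RPKM of the family. Its ratio was 0.992, with an interval from 0.970 to 1.01. Gria1, the subunit tied to activity-dependent receptor insertion in mature neurons, was at 26.7 and 25.0 RPKM, slightly lower in TRPM2-KD at a ratio of 0.937 (0.894 to 0.981). Gria4 was at 8.13 and 8.66 RPKM and Gria3 at 4.74 and 5.02, and both intervals span 1.

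Kainate receptor genes came next in level and were also held mostly by 1 subunit. Grik5, a subunit with high affinity for kainate that needs a partner to form a channel, was at 56.6 RPKM in both libraries (5702 and 4518 reads), 60.2% and 59.3% of the kainate RPKM. Grik3 was at 26.1 RPKM in both. Their ratios were 0.999 (0.960 to 1.04) and 1.00 (0.962 to 1.04). Grik2, a main channel-forming partner, had 1465 Control reads and 1469 reads from the shallower TRPM2-KD library, or 6.75 and 8.53 RPKM. It was the 1 kainate gene whose interval left 1, at 1.26 (1.17 to 1.36), and its share of the family was 7.17% and 8.94%. Grik1, at 2.95 and 2.65 RPKM, and Grik4, at 1.76 and 1.64, had intervals spanning 1.

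NMDA receptor genes, whose channels need glycine or D-serine as well as glutamate, were much lower, and their subunits differed in direction. The obligatory subunit gene Grin1 was at 3.89 and 3.81 RPKM, a ratio of 0.978 (0.889 to 1.08). Grin2b, the GluN2 subunit typical of the embryonic forebrain, was higher in TRPM2-KD, at 5.36 and 6.03 RPKM and a ratio of 1.12 (1.07 to 1.18). Its gene length is 24.8 kb. With the median of genes of like length subtracted, the log2 ratio of Grin2b was 0.08, from 0.17. Grin2d, a subunit of embryonic brain and of interneurons, was lower, with 495 Control and 313 TRPM2-KD reads, or 3.22 and 2.56 RPKM, and a ratio of 0.797 (0.690 to 0.920). An antisense entry, Gm45441, shares 9.66% of the exon bases of Grin2d. Grin2b made up 32.1% of the NMDA RPKM in Control and 38.3% in TRPM2-KD, and Grin2d 19.3% and 16.3%, of a sum that includes Grin3b (15.5% and 9.73%), whose reads are uncertain.

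The GluN3 subunits, which bind glycine and lower the calcium flow of NMDA receptors, differed from each other. Grin3b had 223 Control and 105 TRPM2-KD reads, or 2.58 and 1.53 RPKM. Its ratio of 0.594 (0.466 to 0.752) was the lowest of any receptor subunit at the minimum. In the GENCODE M21 annotation 32.1% of its exon bases are shared with Tmem259 on the other strand, which had 4178 and 2980 reads, so without a stated strand its reads are uncertain. Grin3a was at 1.03 and 1.16 RPKM with an interval from 0.964 to 1.33, and Grin2c was at 0.598 and 0.639 RPKM. An antisense entry, Grin1os, shares 13.5% of the exon bases of Grin1. Grin1os had 565 Control and 400 TRPM2-KD reads, beside 991 and 769 for Grin1, so a part of the Grin1 reads may be wrongly placed. Among delta receptors, which act in synapse formation, Grid1 was at 1.90 and 2.13 RPKM, with an interval from 0.947 to 1.32.

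Grid2ip, the scaffold, had 162 Control and 61 TRPM2-KD reads, or 1.29 and 0.612 RPKM. That is the lowest ratio among the 38 genes, 0.475 (0.348 to 0.641). For Grid2ip the log2 fold change in the authors' deposited table is -1.07, with p = 0.131. The antisense entry Gm20635, which shares 9.52% of its exon bases, had 8 and 21 reads and so went the other way.

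**Figure D2:**
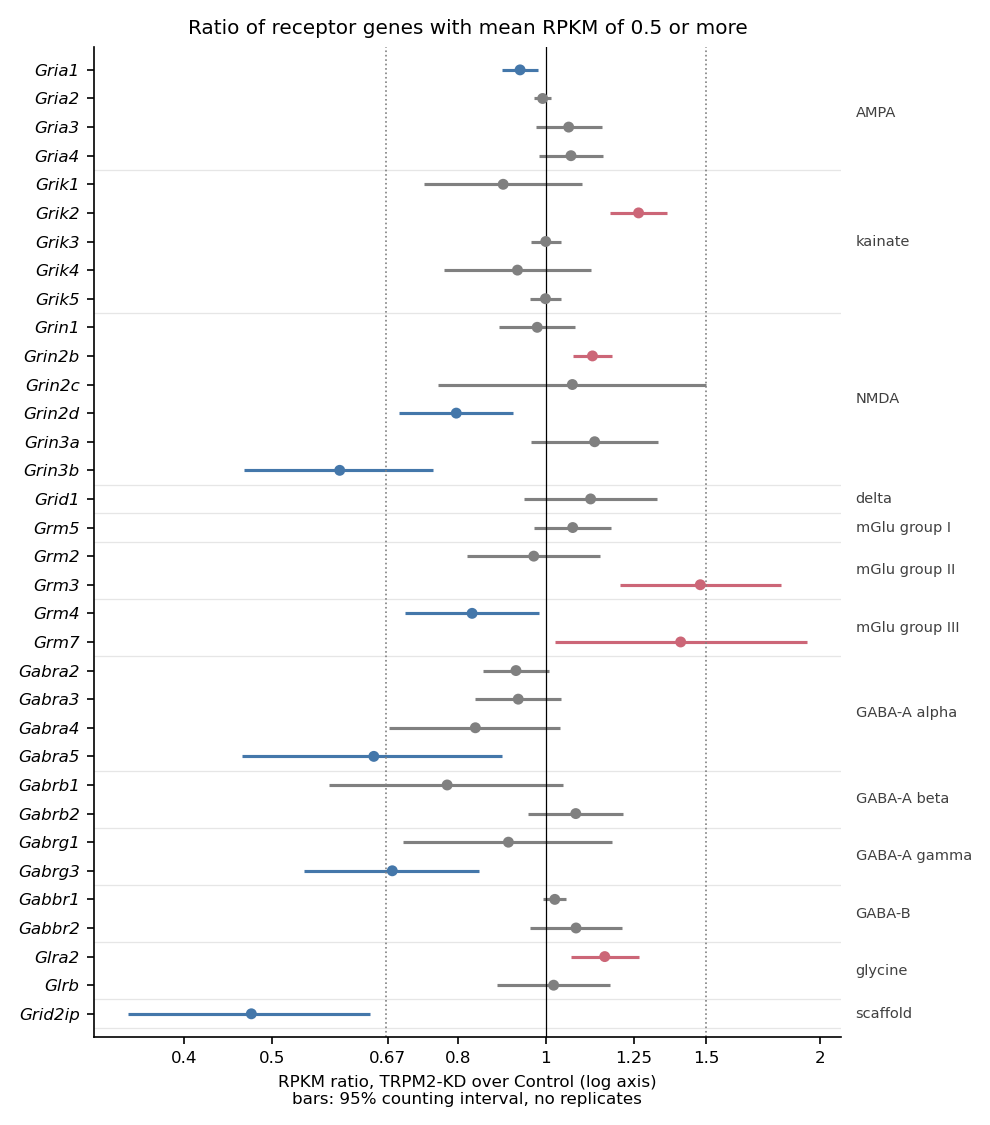
RPKM ratio of TRPM2-KD over Control (log axis) for 34 members at the minimum level, with 95% counting intervals; red intervals lie above 1, blue below, and dotted lines mark 1.5-fold. Most points sit close to 1, no receptor passes 1.5 on the right, and Grin3b, Gabra5 and Grid2ip pass it on the left.

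Metabotropic glutamate receptors, which signal through G proteins, held the highest ratios among the members, those of Grm3 and Grm7. Grm3, a group II receptor that lowers cyclic AMP and is prominent in glia, had 180 Control and 211 TRPM2-KD reads, or 1.94 and 2.87 RPKM. Its ratio of 1.48 (1.21 to 1.81) was the highest of all members. Grm2, the other group II receptor, was level at 3.73 and 3.62 RPKM, so the share of Grm3 in group II was 34.2% in Control and 44.2% in TRPM2-KD. The antisense entry Gm28111 shares 9.60% of the exon bases of Grm2. In group III, whose receptors act mostly on nerve terminals, Grm7 was higher at 1.41 (1.02 to 1.93, 78 and 87 reads) and Grm4 lower at 0.830 (0.700 to 0.982, 351 and 231 reads). Grm7 at 0.505 and 0.710 RPKM was the lowest gene by mean RPKM that still reached the minimum.

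Group I receptors couple to calcium release from stores. Grm5, known from cortical progenitors and the most abundant metabotropic gene, was at 4.30 and 4.60 RPKM with an interval from 0.970 to 1.18. Grm8, at 0.282 and 0.269 RPKM, was under the minimum. Summed over the 7 metabotropic genes, RPKM was 14.5 in Control and 15.1 in TRPM2-KD, far below the 249.5 and 248.4 of the ionotropic glutamate receptors.

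GABA-A receptors are mostly built of alpha, beta and gamma subunits. Gabra2, the most abundant alpha subunit gene, had 1334 Control and 981 TRPM2-KD reads, or 21.3 and 19.7 RPKM. It gave 63.6% and 64.6% of the alpha RPKM, and its interval, from 0.853 to 1.01, spans 1. Gabra3, an alpha subunit prominent before birth, was at 7.72 and 7.20 RPKM, a ratio of 0.932 (0.837 to 1.04). Gabrb2, a beta subunit common in the adult brain, was at 3.63 and 3.91 RPKM, a ratio of 1.08 (0.956 to 1.22). The alpha subunit RPKM summed to 33.4 in Control and to 30.5 in TRPM2-KD.

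The GABA-A genes with an interval wholly below 1, Gabra5 and Gabrg3, were those of minor subunits. Gabra5, an alpha subunit of extrasynaptic receptors, had 113 Control and 58 TRPM2-KD reads, or 1.62 and 1.05 RPKM, a ratio of 0.647 (0.463 to 0.896). The antisense entry Gm9962 shares 4.98% of the exon bases of Gabra5. Gabrg3 had 238 and 128 reads, or 0.760 and 0.515 RPKM, a ratio of 0.678 (0.543 to 0.844). Gabra4, Gabrb1 and Gabrg1 were between 1.02 and 2.01 RPKM, all lower in TRPM2-KD with intervals spanning 1. Of the 11 GABA-A genes at the minimum 3 lay above 0 and 8 below, with a median log2 ratio of -0.11. The accessory subunits Gabrd, Gabre and Gabrq were below the minimum, with 14 to 50 reads per library, and the highest of them by mean RPKM, Gabrq at 0.313 and 0.359, was the first gene outside it. The intervals of these 3 span 1.

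GABA-A genes lie in clusters. In the RefSeq gene table of GRCm38.p6, Gabrg3 and Gabra5, the lower pair whose promoters are shown above, follow each other on chromosome 7 with no other protein-coding gene between them. The cluster there holds more than this pair, and no common direction of the cluster is read from them. On chromosome 5 all 4 genes, Gabrg1, Gabra2, Gabra4 and Gabrb1, had ratios below 1, from 0.779 to 0.927, each with an interval spanning 1. On chromosome X Gabra3 lies between Gabre and Gabrq, the accessory genes below the minimum.

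GABA-B and glycine receptors were level or slightly higher in TRPM2-KD. Gabbr1, the GABA-binding subunit, had 9989 and 8104 reads, or 49.0 and 50.1 RPKM, a ratio of 1.02 (0.993 to 1.05). Its partner Gabbr2, which reaches the G protein, was at 4.16 and 4.49 RPKM, so Gabbr1 stood at 92.2% and 91.8% of the pair. Glra2, the alpha subunit of embryonic glycine receptors, had 1107 Control and 1019 TRPM2-KD reads, or 13.4 and 15.5 RPKM, and was higher at 1.16 (1.06 to 1.26). The beta subunit gene Glrb, which ties the receptor to its scaffold, was at 4.90 RPKM in Control, with a ratio of 1.02 (0.883 to 1.18). Glrb is the protein-coding neighbour of Gria2 on chromosome 3, and both were near 1.

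**Figure D3:**
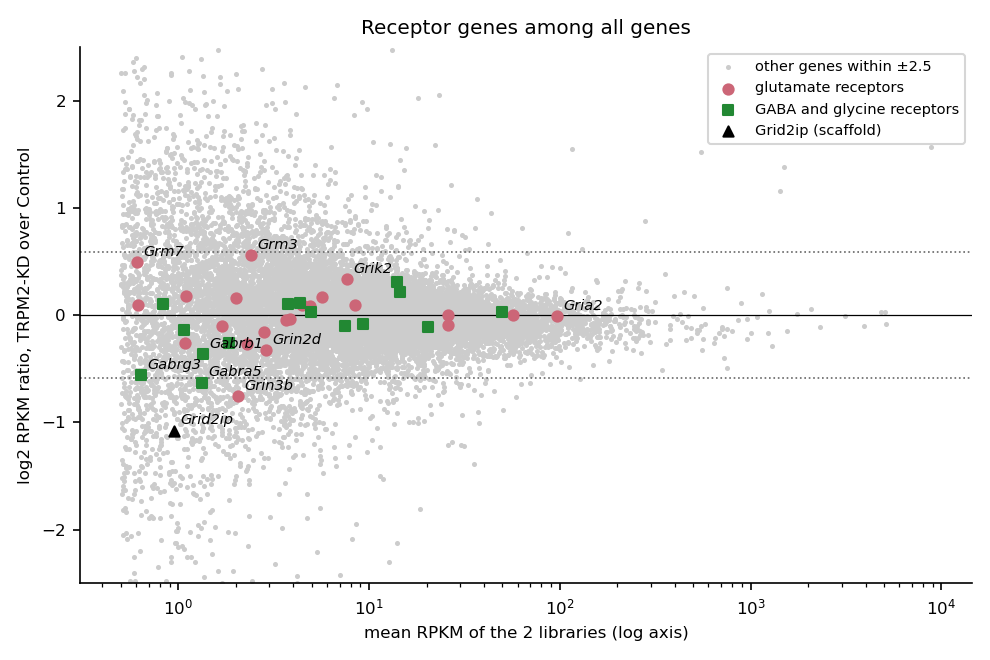
Log2 RPKM ratio against mean RPKM (log axis) for all genes at the minimum level with a log2 ratio within 2.5 of 0 (grey), with the glutamate receptors, the GABA and glycine receptors and Grid2ip marked; dotted lines are 1.5-fold. The receptor genes lie inside the cloud of other genes at every level, and Grik2 is the gene farthest from 0 among those above 5 RPKM.

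Promoter letters were searched for 5 motifs on both strands in 37 windows of 29 members, after the values had been seen. GCGGGGGCG was found in 2 member windows (5.41%), those of Grm3 and Grin1, beside 2.91% of all 32851 windows. The genes differed, Grm3 at a ratio of 1.48 and Grin1 at 0.978. The other EGR form, GCGTGGGCG, and the cyclic AMP response element TGACGTCA were in no member window, against 0.612% and 1.79% of all. CGCATGCG, the core of the NRF1 motif, was in 1 window, of Gabrb1 (1.87% of all), and TTCAGCACC, the left part of the REST element, in 1, of Grm2 (0.371% of all). Member windows had a median of 14 CpG dinucleotides, and all windows 7.

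Genes of proteins that work with the receptors were described in 3 lists, to be read beside all genes, of which 28.1% had an interval above 1 and 28.2% below, with a median log2 ratio of -0.004. Of 14 auxiliary subunits of ionotropic glutamate receptors, 6 were above 0 and 8 below, with 1 interval above 1 and 5 below and a median log2 ratio of -0.10, and the share below 1 was near that of all genes. Cnih3 and Cacng2, which slow the closing of AMPA receptors, were at ratios of 0.829 (0.757 to 0.908) and 0.836 (0.773 to 0.905). Cacng5 was the exception at 1.68 (1.31 to 2.16, 114 and 152 reads), and Cacng3 was at 0.770 with an interval spanning 1. Of 17 glutamate receptor scaffolds 4 intervals lay above 1 and 10 below, with a median of -0.11. Shank3 and Dlgap4, of the postsynaptic density, were both at 0.846, with Dlgap2 at 1.33 and Homer2 at 1.18. Scaffold and auxiliary genes of GABA and glycine receptors had 1 interval of 10 above 1 and 3 below, the latter close to the share over all genes, and a median of -0.10. Among them Clptm1, which holds GABA-A receptors inside the cell, was at 0.814 (0.766 to 0.865), Gabarap at 0.863, Kctd8 at 0.720 and Kctd12b at 1.18, the last pair with intervals spanning 1.

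Genes that clear or make the transmitters included several with higher levels in TRPM2-KD. Of 10 glutamate and glutamine transporter genes, 6 intervals lay above 1 and 1 below, beside 28.1% and 28.2% of all genes. Their median log2 ratio was 0.27, and 0.11 when a mean RPKM of 1 or more was asked for, which leaves out Slc1a6 and Slc17a8. Slc1a2, the main glutamate transporter of astrocytes, had 1429 Control and 2080 TRPM2-KD reads, or 4.15 and 7.61 RPKM, a ratio of 1.83 (1.71 to 1.96). Slc1a3, the glutamate transporter of radial glia, was at 10.2 and 15.8 RPKM, a ratio of 1.56. Slc1a6 at 2.81 (26 and 58 reads) and Slc17a8 at 1.58 (56 and 70 reads) were thinly covered. The vesicular transporters of excitatory neurons, Slc17a6 and Slc17a7, were at 0.999 and 0.964 with intervals spanning 1.

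Among genes that make, load or clear GABA and glycine, the highest ratio was that of a transporter. Slc6a11, a glial GABA transporter, was at 4.97 RPKM in Control and 7.63 in TRPM2-KD, a ratio of 1.54 (1.37 to 1.73), and the GABA-degrading enzymes Aldh5a1 and Abat were at 1.24 and 1.17. Slc32a1, which loads vesicles with GABA and glycine, was at 0.987 (0.897 to 1.09), Gad1 at 1.08 (1.03 to 1.13) and Gad2 at 1.04 (0.992 to 1.10). The glycine transporter gene Slc6a9 was at 1.11 with an interval spanning 1. Of these 9 genes 4 intervals lay above 1 and none below, beside 28.1% and 28.2% of all genes, and their median log2 ratio was 0.11.

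Chloride cotransporters set whether GABA excites or inhibits. Slc12a2, which loads chloride, had 2679 Control and 3064 TRPM2-KD reads, or 15.7 and 22.6 RPKM, a ratio of 1.44 (1.37 to 1.52). Slc12a5, which extrudes chloride from maturing neurons, was at 5.07 and 5.28 RPKM, a ratio of 1.04 (0.947 to 1.15). The loader was the higher gene in both libraries, and its interval lies wholly above that of the extruder. Slc12a7 was at 1.17 (1.07 to 1.27).

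**Figure D4:**
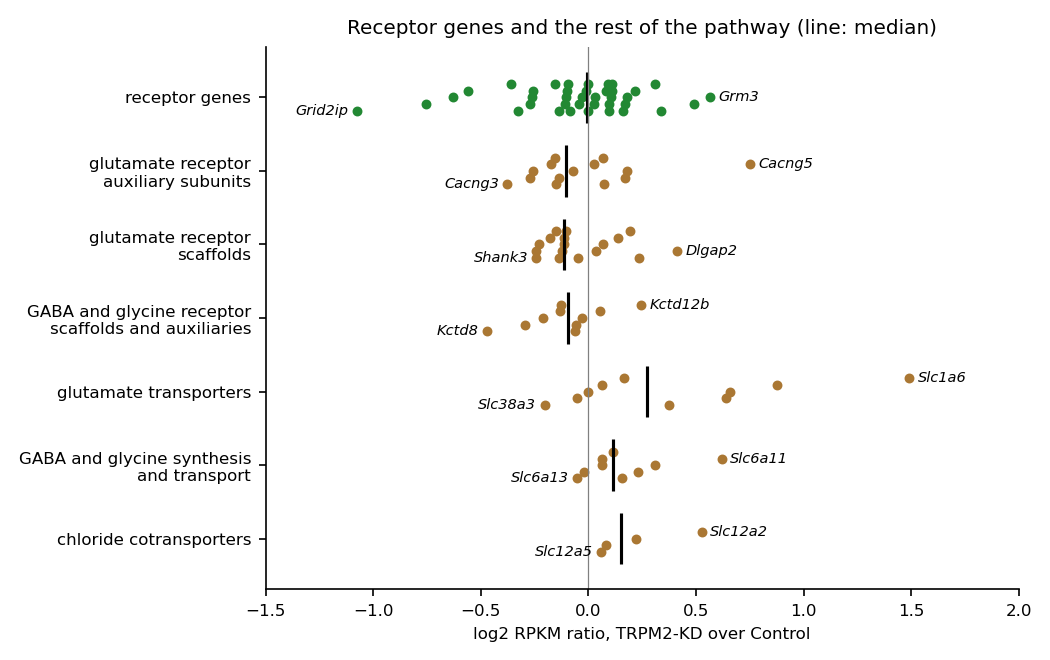
Log2 RPKM ratio of the 38 members, the scaffold Grid2ip included, and of 6 lists of genes that work with them (1 point per gene at the minimum level, vertical line at the median, lowest and highest gene named). The median of the members sits near 0, the medians of the auxiliary and scaffold lists lie slightly below it, and those of the transporter, synthesis and chloride lists above it.

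Markers of cell types also differed between the libraries. Of all 15187 genes 7504 lay above 0 and 7683 below, and 28.1% had an interval above 1 and 28.2% below. Of 12 pan-neuronal genes 9 were lower in TRPM2-KD, with a summed level of 1886 RPKM in Control and 1706 in TRPM2-KD. Their intervals lay below 1 for 7 and above 1 for 2. Of 12 interneuron lineage genes 9 were lower (351 and 310 RPKM), with 9 intervals below 1 and 1 above. Of 12 radial glia genes 8 were higher (693.6 and 747.8 RPKM, a sum that includes Slc1a3), but only 6 intervals lay above 1, with 2 below. Pax6 and Sox2, counted as higher, had intervals spanning 1, and Fabp7 held 259 and 303 RPKM of the sum. All 8 microglia genes were higher (118 and 187 RPKM), each with an interval above 1. Of 9 Cajal-Retzius genes 8 were higher (53.4 and 63.4 RPKM), with 5 intervals above 1 and 1 below. Of 8 endothelial and mural genes 5 were lower (150.2 and 133 RPKM), with 4 intervals below 1 and 2 above. Intermediate progenitor genes were at 283 and 279.6 RPKM, with 6 of 8 lower, 3 intervals below 1 and 1 above. Meningeal fibroblast genes were at 80.7 and 64.0 RPKM, with 5 of 6 lower, 4 intervals below 1 and none above. Oligodendrocyte lineage genes summed to 20.5 and 23.8 but had no common direction, with 3 higher and 3 lower. Among them Gpr17 was at a ratio of 3.90 and Sox10 at 0.445. None of these markers was at 0 in either library. Their part in the receptor and transporter ratios was not tested.

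Gene length and base composition also went with the ratio. With genes ranked by length into 10 bins of equal size, the shortest bin had a median log2 ratio of -0.07 and the longest 0.09, and 7 members were among the longest. By GC content of the longest transcript the lowest bin had 0.07 and the highest -0.10, from 58.1% GC up. The 7 members of that highest bin include 4 of the 7 with an interval below 1, Grin2d, Grin3b, Grm4 and Grid2ip, and also Grik5, Grin1 and Grin2c, whose intervals span 1. The part of either in the ratios was not tested beyond the values given for length with Grin2b and in the closing section.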

How the data were processed

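RNA-seq of 1 Control and 1 TRPM2-KD library was analysed from 1 deposited gene table. Its columns, per the file headers, are each library's counts and RPKM, followed by the authors' log2 fold change, p-value and adjusted p-value. No tool for that comparison is given in the sources used here. The deposited counts are whole numbers that differ in total between libraries. The deposited RPKM values scale each library to its total of reads. HTSeq 0.6.0, TopHat2 2.0.12, Bowtie2 2.2.3 and build mm9 are named in the submitters' processing notes. The annotation, the treatment of strand and that of reads matching several places are not given there. Every listed gene reaches 1.01 CPM in 1 library or more.

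Ratios are RPKM in TRPM2-KD over Control, with exact conditional binomial (Clopper-Pearson) 95% intervals (Python 3.11.15, scipy 1.17.1). Reads are not independent molecules, so these cover counting error only. With 1 library per group no test of the conditions was made. Counts past 1.5-fold are read beside the share over all genes. Interval calculation was tested on simulated data. Members and lists were chosen with earlier results of these data known. A few genes counted in the totals are not reported here by name. Of each pathway list up to 4 genes with the largest absolute log2 ratio are named, and always Gad1, Gad2, Slc17a6, Slc17a7, Slc32a1, Slc12a2 and Slc12a5. Any other gene was chosen after its values were seen. Exon overlaps and GC content come from GENCODE M21 (GRCm38) and gene order from RefSeq. Alternatives were TMM scaling (edgeR 4.0.16), median of ratios, a length correction, pseudocounts of 1 and 0.1, other minimums and other folds.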

Additional observations from a re-analysis of the deposited data

How the results depend on the processing

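The count of members at or below 1/1.5 was 3. It was 0 on log2(RPKM + 1), 5 with no minimum RPKM, when Gabrd and Gabre join, 6 at a ratio of 0.8 or less and 1 at a fold of 2. With a pseudocount of 0.1, and at a minimum mean RPKM of 1, it was 2. The count at or above 1.5, which was 0, was 1 with the median of the length group subtracted, when Grm3 passes, and 3 at 1/0.8 or more. With the length correction the median log2 ratio of the kainate receptor subunits was -0.088, from -0.002, and 10 members, not 7, had an interval below the corrected 0. Those added included the abundant Gria2, at a log2 ratio of -0.06 from -0.01, and Grik3, at -0.09 from -0.0006. At a minimum mean RPKM of 1 the median of the group III metabotropic receptors was -0.27, with Grm4 alone left, and that of the glutamate transporters was 0.11. The other 154 summary values were counted as unchanged. For a median this meant staying between the medians of its genes' lower and upper interval limits, and for a count within 1.5 times. That range reflects single genes and is not the counting error of a median, so a median could change sign within it. Medians of the AMPA and NMDA subunits did so with the length correction. With no minimum RPKM that of the group III receptors went from 0.11 to -0.06. The TMM and median of ratios scalings shifted all genes by -0.0008 and -0.0003 on the log2 scale and changed no count of members. Among the 38 members, none with an interval that leaves 1 changed direction under the 2 scalings, the length correction or either pseudocount. No paired analysis was possible because each group has 1 library, and no library could be left out. For genes under 100 reads per library, such as Grm7, Grin2c and Slc1a6, depth limits what can be detected.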
